A study of Drosophila melanogaster with 10 samples.

Results

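Insulin and TOR signalling couple growth, metabolism and egg production of the fly to its food. Insulin-like peptides bind the receptor InR, which signals through the adaptor chico and the kinase Akt to keep the transcription factor foxo out of the nucleus and to activate the kinase complex built on Tor. When signalling is low, foxo enters the nucleus and activates its targets, among them Thor, a repressor of translation that binds the cap-binding factor eIF4E1, and InR itself. Tor phosphorylates S6k, a kinase that promotes protein synthesis, and it also phosphorylates Thor, while Sesn, a stress-induced protein and a foxo target, restrains Tor.

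The 9 genes examined are Ilp2, Ilp7, InR, chico, foxo, Thor, Sesn, Tor and S6k, chosen by name from the 10862 genes that the array's 14010 probe sets name alone. Each had 1 probe set. For 8 of them the platform annotation gave the gene symbol, and Tor stands there under its current symbol mTor. The probe set of Thor is missing from that annotation and was named because RefSeq lists its probe set ID among the synonyms of Thor. Of the other such IDs that the annotation does hold, 111 carried the same gene alone, 2 carried it among several genes and 0 carried another gene. All 9 were bright enough to be tested, against 10959 features in all.

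Transcripts were measured in whole adult Drosophila melanogaster females of 5 control lines, not selected, and 5 lines selected for heat resistance. Each line gave 1 total RNA sample and 1 array. The series design calls the lines of a group independent, and p-values are therefore against the spread between lines. With 1 array per line, differences between lines, RNA samples and arrays cannot be told apart in this spread. Strain, age, mating status and any treatment before sampling are not given in the labels. Values are log2(intensity + 1), and a difference is the mean of the selected lines minus the mean of the control lines. A difference on this scale understates the change of dim genes.

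Array medians lay between 41.9 and 48.3 on the linear intensity scale, and the log2 values of pairs of arrays correlated at r of 0.987 to 0.998 (across probe sets, not across replicates). Line 1 of both groups stood apart on the first principal component (-24.7 and -23.2, against -9.82 to 15.4 elsewhere). On control probe sets for fly actin, GAPDH and eIF-4a the log2 signal of the 3' end exceeded that of the 5' end by 2.27 and 2.76 on these arrays and by at most 1.93 elsewhere; this 3' excess rises as RNA is degraded. Yolk genes were bright in every line, at list means of 14.10 to 14.38 in control and 13.83 to 14.37 in selected lines, with lower means in the selected lines for 3 of 3 (-0.11 for Yp1, -0.28 for Yp2 and -0.34 for Yp3), and the 4 tested male genes of 6 had list means of 3.63 to 4.15, near the 3.64 reached by the brightest foreign control probe set. Of all tested tissue markers, 0 passed limma's adjusted test, as did 0% of the 10959 features. At an unadjusted p under 0.05 from limma, 4 of 6 muscle and 1 of 3 neuronal genes were higher in the selected lines. Lower at that p were 6 of 9 eggshell, 2 of 3 yolk and 1 of 4 fat body genes, and 0 of 4 male genes reached it. Of all features 5.55% were higher and 3.97% lower. The groups did not overlap for 3 muscle, 2 eggshell and 1 fat body genes, against 1.59% of all features. All 6 tested muscle genes of 8 listed had higher means in the selected lines (list mean 7.12 to 8.94 in control and 8.16 to 9.89 in selected lines). All 9 tested eggshell genes of 10 had lower means (12.56 to 13.00 against 11.40 to 12.60). The other marker lists were of fat body (8.78 to 9.33 against 7.61 to 8.72, over 4 of 4 genes) and neurons (4.45 to 4.65 against 4.45 to 4.96, over 3 of 4). Of the fat body genes 3 had lower means, with differences of -3.49 for Lsp2, -0.24 for apolpp and -0.028 for FASN1. Fbp1 differed by 0.13, so the gap between the fat body list means is mostly that of Lsp2. Of the neuronal genes 3 of 3 had higher means. No tested marker had a mean at or below that background. The part of these tissues in the values below was not tested, and in whole flies fewer cells of a type and less RNA per cell cannot be told apart.

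The comparison asks whether transcripts of the pathway differ between heat-selected and control lines. Of the 9 genes, 0 passed limma's test with Benjamini-Hochberg adjustment over all features, as did 0% of the 10959 features, and the smallest adjusted p of any feature was 0.232. Unadjusted p-values under 0.05 were found for 2 of the 9, with Thor higher and Ilp7 lower in the selected lines, against 9.52% of all features (5.55% higher and 3.97% lower). The 9 differences ran from -0.38 to 0.37 with a median of 0.045, and 6 were above 0, against a median of 0.0075 over all features, of which 53.7% were above 0. None of the 9 had groups that did not overlap, which 1.59% of all features had (0.803% higher and 0.785% lower). By exact two-sided permutation over all labelings of the lines, which cannot give less than 0.00794, the unadjusted p was 0.0238 for Ilp7, 0.0952 for Sesn, 0.111 for Thor and 0.222 to 0.937 for the other 6.

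**Figure D1:**
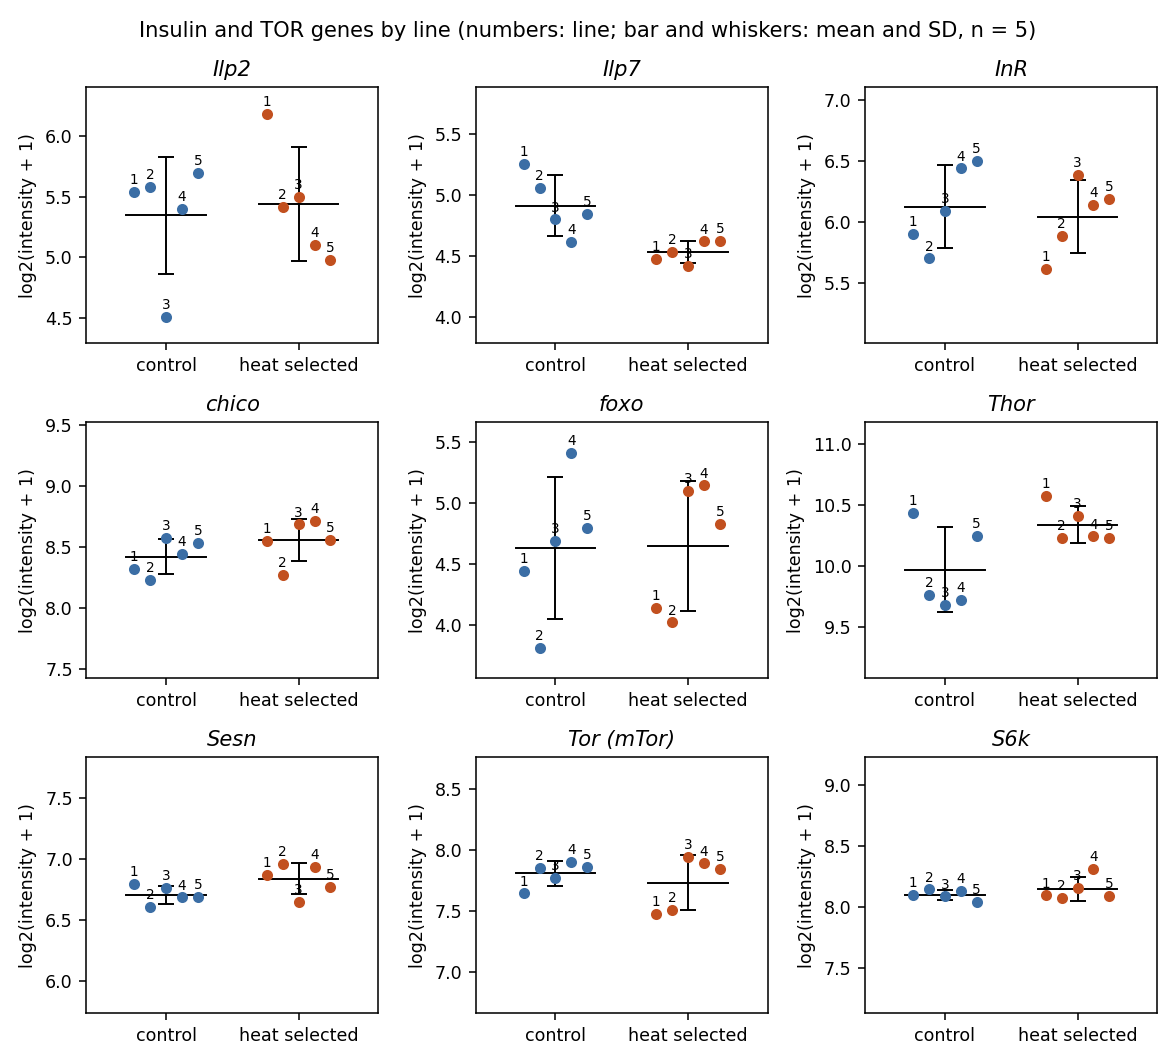
Level of each of the 9 genes in the 5 control and 5 heat-selected lines, as log2(intensity + 1), with all panels spanning the same number of log2 units; points are lines with their numbers, and bars and whiskers are the mean and SD (n = 5). Thor lies above the control median of 9.76 in all 5 selected lines, Ilp7 below the control median of 4.84 in all 5, and foxo and InR are lowest in lines 1 and 2 of both groups.

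Of the ligands, Ilp7 is made by a small set of neurons of the ventral nerve cord and Ilp2 by the insulin-producing cells of the brain. Ilp7 was 5.25, 5.06, 4.80, 4.61 and 4.84 in control lines 1 to 5. It was 4.47, 4.53, 4.42, 4.62 and 4.62 in selected lines 1 to 5. All selected lines lay below the control median, 3 of them lay below every control line, and control line 4 overlapped with the selected lines. The difference was -0.38 ± 0.11 (SE), with a 95% interval of -0.62 to -0.14 and an adjusted p of 0.306 over all features from limma. This is a ratio of 0.769 between selected and control lines on the scale of intensity + 1. It was -0.65 within lines 1 and 2 and -0.20 within lines 3 to 5, and -0.28 ± 0.097 (SE) without line 1 of both groups. The control lines spread more (SD 0.25) than the selected lines (SD 0.091), and the levels are dim.

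Ilp2 spread widely within both groups. It was 5.54, 5.58, 4.51, 5.40 and 5.70 in control lines 1 to 5 and 6.18, 5.42, 5.50, 5.10 and 4.98 in selected lines 1 to 5. The highest value was that of selected line 1 and the lowest that of control line 3, and the groups overlapped throughout. The difference was 0.091 ± 0.26 (SE), with a 95% interval of -0.47 to 0.65. It turned to -0.12 without control line 3 and to -0.095 without selected line 1. Neither ligand level says what was secreted, since the arrays measured transcripts only.

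The receptor InR was 5.90, 5.70, 6.09, 6.44 and 6.50 in control lines 1 to 5. It was 5.61, 5.89, 6.39, 6.14 and 6.19 in selected lines 1 to 5. In both groups lines 1 and 2 were the lowest, and the selected lines lay within or just below the control range. The difference was -0.081 ± 0.18 (SE), with a 95% interval of -0.47 to 0.31 and an adjusted p of 0.999 from limma. The sign turned when control line 5 (0.012) or selected line 1 (0.027) was left out. The adaptor chico, which links InR to the lipid kinase upstream of Akt, was 8.32, 8.23, 8.57, 8.44 and 8.53 in the control lines and 8.55, 8.27, 8.68, 8.71 and 8.56 in the selected lines. Its difference was 0.14 ± 0.099 (SE), with a 95% interval of -0.081 to 0.35. Selected lines 3 and 4 lay above every control line, and line 2 was the lowest of both groups.

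Foxo, the transcription factor held back by insulin signalling, had a mean of 4.63 ± 0.58 over control lines and 4.65 ± 0.53 over selected lines (SD, n = 5 each). Its level was 4.44, 3.81, 4.69, 5.41 and 4.80 in control lines 1 to 5 and 4.14, 4.02, 5.10, 5.15 and 4.83 in selected lines 1 to 5. Lines 1 and 2 of both groups lay below the other 6 lines. The difference was 0.017 ± 0.30 (SE), with a 95% interval of -0.64 to 0.68, and its sign turned without control line 1 or 2 (-0.031 and -0.19) or selected line 3, 4 or 5 (-0.097, -0.11 and -0.029). This interval is wide enough to hold a difference larger than that of any of the 9 genes in either direction. Control line 2 came near the 3.64 of the brightest foreign control probe set.

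Thor was 10.44, 9.76, 9.68, 9.72 and 10.25 in control lines 1 to 5. It was 10.58, 10.23, 10.41, 10.24 and 10.23 in selected lines 1 to 5. The selected lines lay close together, control lines 2, 3 and 4 lay below all of them, and control lines 1 and 5 lay among them. The mean was 9.97 ± 0.35 over control lines and 10.34 ± 0.15 over selected lines (SD, n = 5 each). The difference was 0.37 ± 0.15 (SE), a ratio of 1.29 on the scale of intensity + 1, with a 95% interval of 0.035 to 0.70, an unadjusted p of 0.0332 and an adjusted p of 0.481 over all features from limma. It was 0.31 within lines 1 and 2 and 0.41 within lines 3 to 5. Without line 1 of both groups it was 0.43 ± 0.12 (SE, adjusted p = 0.159 from limma), and with any 1 line left out it ran from 0.30 to 0.48 (adjusted p between 0.136 and 0.815).

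Sesn, which restrains Tor through the amino acid sensing branch and the AMP-activated kinase, was 6.80, 6.61, 6.76, 6.69 and 6.69 in control lines 1 to 5. In selected lines 1 to 5 it was 6.87, 6.96, 6.65, 6.94 and 6.77. Selected lines 1, 2 and 4 lay above every control line, and selected line 3 lay below 4 of the control lines. The difference was 0.13 ± 0.075 (SE), with a 95% interval of -0.035 to 0.29. Centring each array on its median, which moved the median difference of all features by -0.068, left it at 0.061.

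Tor was 7.64, 7.86, 7.77, 7.91 and 7.87 in control lines 1 to 5 and 7.48, 7.51, 7.94, 7.89 and 7.84 in selected lines 1 to 5. Selected lines 1 and 2 were the lowest of the 10, and selected line 3 was the highest. The difference was -0.076 ± 0.11 (SE), -0.26 within lines 1 and 2 and 0.046 within lines 3 to 5. S6k, the kinase downstream of Tor, spanned 0.27 over all lines, the smallest range of the 9. It lay between 8.04 and 8.14 in the control lines and between 8.07 and 8.31 in the selected lines, with selected line 4 the highest. Its difference was 0.045 ± 0.064 (SE), with a 95% interval of -0.096 to 0.19, and median centring turned it to -0.023.

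**Figure D2:**
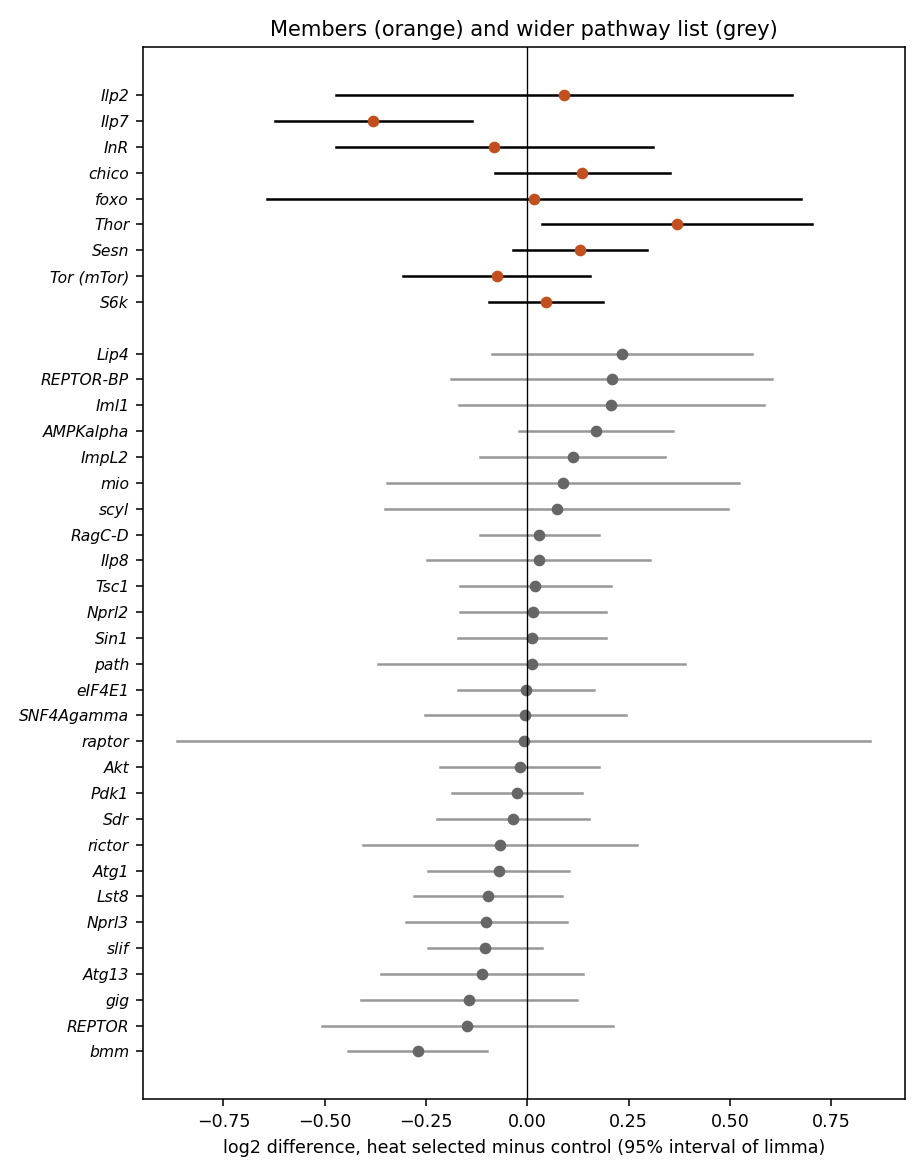
Log2 difference, heat selected minus control, of the 9 genes (orange, upper block) and of 28 further genes of the pathway (grey), with 95% intervals from limma. The intervals of Thor (0.035 to 0.70), Ilp7 (-0.62 to -0.14) and bmm (-0.44 to -0.099) do not cross 0, and none of the 37 genes passes after adjustment over all features.

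Whether the foxo targets Thor and InR move together was asked over the 10 lines. No joint movement was detected: Pearson's r was -0.16 (permutation p = 0.654, adjusted p = 0.770 over 3 pairs) and Spearman's rho was -0.18 (permutation p = 0.635, adjusted p = 0.732). After the mean of each line's own group was taken out, r was -0.095. Without control lines 3 and 4, the farthest from the median of Thor, it was 0.10, and without line 1 of both groups it was 0.30 (exact permutation p = 0.464, n = 8). No alternative tried gave a relation past the threshold. In line 1 of both groups Thor was at its highest of each group (10.44 and 10.58) and InR among its lowest (5.90 and 5.61). These 2 arrays, named after their values were seen, are also those with the raised 3' excess (2.27 and 2.76). Control line 2 did not show such a contrast, with the lowest InR of its group (5.70) and Thor at the control median (9.76).

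Between the transcripts of foxo and Thor no relation was detected either, with r of -0.10 (permutation p = 0.770, adjusted p = 0.770) and rho of -0.13 (permutation p = 0.732, adjusted p = 0.732). Without control line 2 and selected line 2, the farthest from the median of foxo, r was -0.53 (exact permutation p = 0.178, n = 8). The level of foxo did track that of InR. Over the 10 lines r was 0.85 (permutation p = 0.00258, adjusted p = 0.00774) and rho was 0.81 (permutation p = 0.00785, adjusted p = 0.0235). By r the relation held with any 1 line left out (0.82 to 0.92), without control line 2 and selected line 2 (r = 0.82, exact permutation p = 0.0133, n = 8), and after group means were taken out (r = 0.87). By rho it missed the threshold without control line 1, 2 or 3 or selected line 1 or 2 (adjusted exact permutation p of 0.0517 to 0.0934) and with quantile normalization (adjusted permutation p = 0.0610), and without line 1 of both groups rho was 0.69 (adjusted exact permutation p = 0.208, n = 8). It did not hold within lines 3 to 5 of both groups, where r was 0.37 (exact permutation p = 0.476, n = 6), and lines 1 and 2 are only 4 lines, too few for a value of their own. The subset of lines 3 to 5 was chosen after seeing the data. By r with foxo over the 10 lines, InR stood at place 245 of 9690 features with a gene name. Many features thus tracked foxo more closely, and whether the relation is particular to InR was not tested. The permutation p treats lines as exchangeable, although lines 1 and 2 of both groups lay below the others for both genes. The arrays measured transcripts only, and the level of foxo does not say how much of its protein was in the nucleus.

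**Figure D3:**
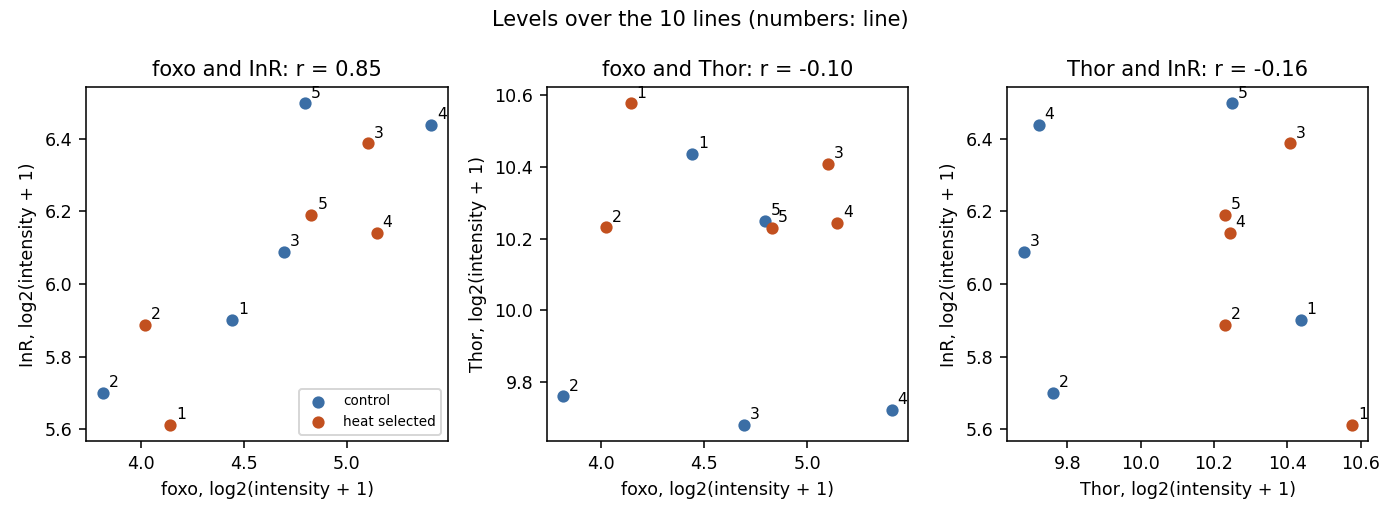
Levels of foxo and InR, foxo and Thor, and Thor and InR in each of the 10 lines, as log2(intensity + 1), with line numbers; blue marks control and orange heat-selected lines. Foxo and InR rise together (r = 0.85), with lines 1 and 2 of both groups at the lower left, while no relation was detected between Thor and foxo (r = -0.10) or InR (r = -0.16).

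A split by line number was seen in 10 of the 37 pathway genes tested. Lines 1 and 2 of both groups all lay below the other 6 lines for 2 of the 9 genes, foxo and InR, and for 8 of the 28 further genes, against 7.51% of all features, and all lay above them for 0 of the 37, against 2.41%. The 8 were raptor, the scaffold of the first TOR complex, rictor, that of the second, the brake gig, the TOR inhibitor Iml1, the stress-induced TOR brake scyl, the amino acid transporter path, the autophagy kinase Atg1 and the transcription factor REPTOR. Raptor was 6.19 on average in the 4 lines numbered 1 and 2 and 7.47 in the other 6. The numbers of lines are names given by the labels, and what lines 1 and 2 share is not given there. Over the 10 lines the 3' excess correlated with InR at r of -0.60, with foxo at -0.50, with Tor at -0.64, with Ilp2 at 0.63 and with Thor at 0.41. None of the 9 such relations passed (adjusted permutation p for r of 0.179 to 0.939, for rho of 0.395 to 0.587). Without line 1 of both groups, the farthest from the median of the excess, r was -0.13 for InR, -0.45 for foxo, 0.035 for Tor, 0.17 for Ilp2 and -0.47 for Thor. For chico, S6k, Sesn and Ilp7 r was -0.22, -0.42, 0.031 and 0.20 over 10 lines, and without the same 2 lines it was -0.50, -0.73, -0.73 and 0.70. Of these 9 values without line 1, that of Sesn alone had an unadjusted exact permutation p under 0.05 (p = 0.0389, n = 8). The 3' excess was 1.92 ± 0.21 over control and 1.85 ± 0.52 over selected lines (SD, n = 5 each; exact permutation p = 0.802, two-sided). The part of RNA quality in the values of lines 1 and 2 was not tested further.

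**Figure D4:**
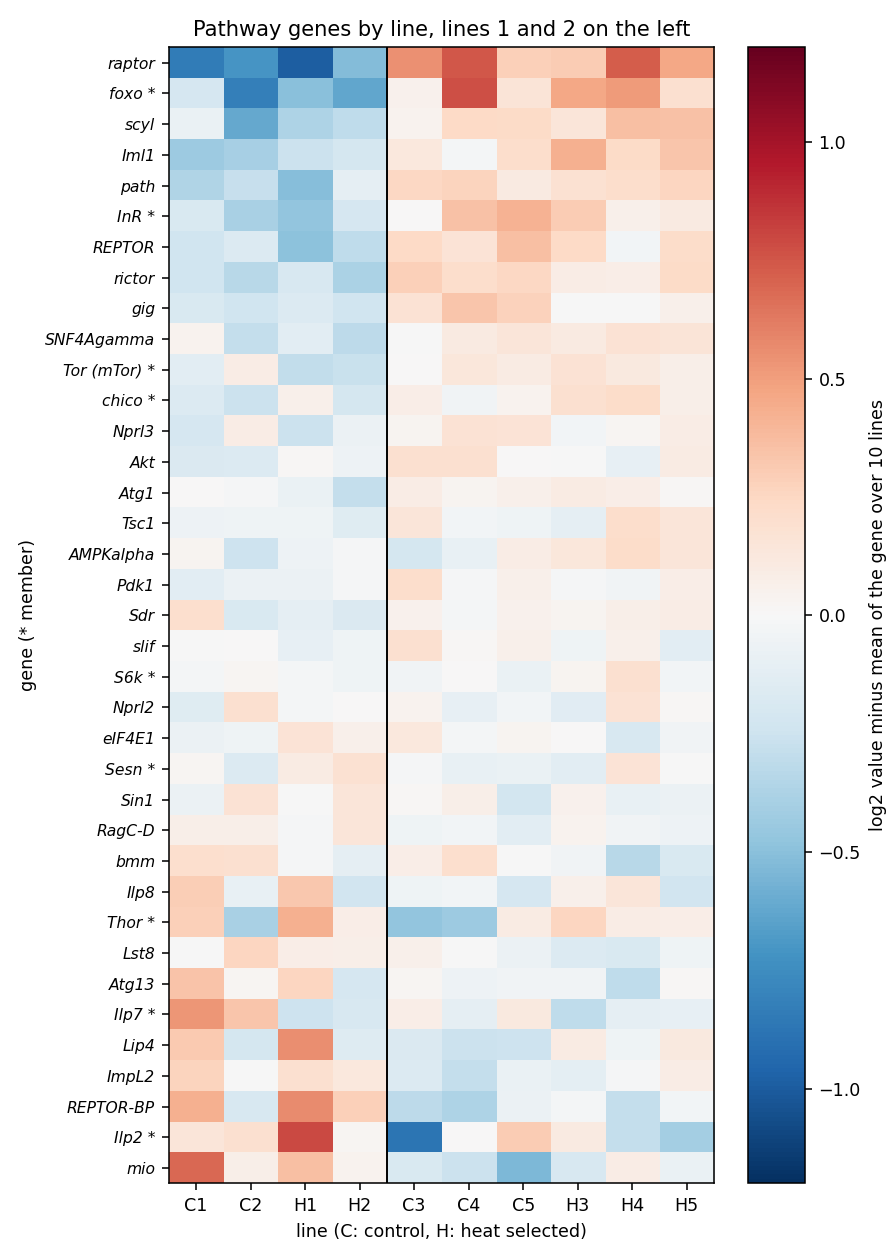
Level of 37 pathway genes (the 9 examined marked with an asterisk) in each line, as the log2 value minus the mean of the gene over the 10 lines, with lines 1 and 2 of both groups left of the vertical line and genes ordered by the gap between the 2 blocks. Raptor, foxo and 8 more genes are lower in all 4 lines on the left than in any line on the right.

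The further genes were taken from a list of 46 by role, of which 29 had a probe set that names them alone and 28 were bright enough to be tested. Means were higher in the selected lines for 13 and lower for 15, against 53.7% higher among all features. The median difference of the 28 was -0.0046, against 0.0075 over all features. At an unadjusted p under 0.05 there was 1 of the 28, bmm, against 9.52% of all features, and 0 passed after adjustment over all features. Levels of the upstream kinases Pdk1 and Akt differed by -0.025 and -0.019. Of 3 genes of ligands and binding proteins, ImpL2, a secreted protein that binds insulin-like peptides, differed by 0.11 ± 0.10 (SE), Ilp8, a relaxin-like peptide, by 0.027 and the decoy receptor Sdr by -0.035. Among 16 genes of the TOR complexes and their upstream regulators the differences ran from -0.14 for gig to 0.21 for Iml1. The energy sensor kinase AMPKalpha had the smallest unadjusted p of the 16, with a difference of 0.17 ± 0.086 (SE, adjusted p = 0.603 from limma), and the amino acid transporter slif followed with -0.11 ± 0.064. Lst8 (-0.097) and Nprl3 (-0.10) are named by rank alone, behind Iml1 and gig, at unadjusted p of 0.267 and 0.283 from limma. Among 5 genes of TOR outputs, REPTOR differed by -0.15 ± 0.16 and its partner REPTOR-BP by 0.21 ± 0.18 (SE), and the autophagy gene Atg13 by -0.11 ± 0.11.

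The list of foxo targets held Thor, InR, Sesn, the lipase genes Lip4 and bmm, and Ilp6, which had no probe set that names it alone. In the selected lines the means of 3 of the 5 measured targets were higher and those of 2 lower, with 1 of each at an unadjusted p under 0.05. Among all features 53.7% had higher means, and 5.55% were higher and 3.97% lower at that unadjusted p. The gene bmm encodes the triglyceride lipase of fat storage droplets. It was 8.46, 8.44, 8.33, 8.45 and 8.25 in control lines 1 to 5 and 8.23, 8.15, 8.21, 7.92 and 8.07 in selected lines 1 to 5. Every selected line lay below every control line, as was so for 1.59% of all features (0.785% lower). The difference was -0.27 ± 0.078 (SE, unadjusted p = 0.00506, adjusted p = 0.304 from limma; exact permutation p = 0.00794, the smallest 5 lines against 5 can give). Lip4 averaged 7.52 ± 0.24 over control and 7.75 ± 0.27 over selected lines (SD, n = 5 each), a difference of 0.23 ± 0.15 (SE). Line 1 was its highest in both groups, as for Thor.

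The genes whose pattern over the 10 lines was most like that of Thor were CG13255 (r = 0.98), salt (0.97), Ac76E (0.96), FASN2 (0.96) and CAP (0.96), of 9690 features with a gene name. Those most like InR were Rrp6 (r = 0.96), CG34126 (0.95), CG8726 (0.94), Nin (0.93) and bon (0.92). For Thor 0.764% of named features exceeded an r of 0.9, and for InR 0.227%. These correlations share the same 10 arrays and the spread between lines 1 and 2 and the others, and they are given as descriptions without a test.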

How the data were processed

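The deposited values are probe set intensities, made by the authors with GCRMA per the submitters' processing notes, and their linear scale was read from the values (0.830 to 32744). No other step is stated in the sources used here. GCRMA pulls dim probe sets toward a floor, which understates differences of weakly expressed genes.

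Probe sets were named through a platform annotation (12443 with 1 gene, 327 with several, left unnamed). A further 20 were named through probe set IDs that RefSeq (Release 6 plus ISO1 MT) lists as synonyms, among them that of Thor. Values were analysed as log2(intensity + 1). Features above 3 on at least 5 of 10 arrays were kept, the brightest probe set standing for a gene. The test was limma 3.58.1 (R 4.3.3; lmFit and eBayes, two-sided), with Benjamini-Hochberg adjustment over 10959 features and a threshold of 0.05. Correlations used 100000 permutations, or all of them below 10 lines, with scipy 1.17.1 and numpy 2.4.6. On simulated data for this comparison (10959 features, 200 of them changed) limma found 73.1% at a fold of 1.5, 88.1% at a fold of 2 and 100% at a fold of 4, beside 9 false calls. The simulated noise was normal and independent between features, without the spread that lines share in the real data. These shares therefore do not say how large a change the real comparison could find. In it Lsp2, at a difference of -3.49, had an adjusted p of 0.232 from limma. Lines of the same number deviated together in 4 of 5 pairs (r of 0.20 to 0.55) and hardly for number 5 (0.027). For control lines 1, 2 and 4 the selected line of the same number was the closest partner. The labels do not say that numbers pair the lines, and the main fit was planned without a block for them. It therefore leaves out what lines of the same number share, and a fit with the block is given at the end. Precision is limited by the number of arrays.

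Members and lists were chosen with earlier results of these data known. Named genes were the 9 members, the foxo targets, the 12 further genes with the smallest p and the 5 genes most like Thor and most like InR. The genes split by line number, and others given to complete a list, were named after their values were seen. No sequences are shown.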

Additional observations from a re-analysis of the deposited data

Results flagged for a closer look

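Among 42 groups of 5 lines (21 genes in each of the 2 groups), 3 held a line whose distance from its nearest neighbour was large against the range of the group, where chance gives about 1 in 20. Ilp2 in control line 3 was 4.51, with the nearest control line at 5.40 and the farthest at 5.70. Lip4 in control line 1 was 7.95, against 7.46 for the nearest and 7.38 for the lowest control line. Atg13 in control line 1 was 10.29, against 9.96 and 9.88. Both high values belong to a line with a raised 3' excess (2.27), and the part of RNA quality in them was not tested.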

How the results depend on the processing

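Under 21 alternative fits of the comparison, 10 of which leave out 1 line, 0 calls were made among the 9 genes by limma over all features. Over all features the 0 calls became 2 with the replicate block (CG18088 and an unnamed probe set), 1 with lines 1 and 2 against lines 3 to 5 as a term, a choice made after seeing the data (the same unnamed probe set), and 0 to 3 with 1 line left out: 3 without control line 5 (CG14277, CG4066 and an unnamed probe set) and 1 without selected line 2 (CG18088). The choice of these names followed from their values. The replicate block left every difference of the 9 as it was, with adjusted p of 0.223 for Ilp7 and 0.232 for Thor from limma. With it the unadjusted p of Thor was 0.00984, and features at an unadjusted p under 0.05 numbered 1467, against 1043 in the main fit. The unadjusted p of Thor from limma was 0.0332 in the main fit. It was 0.0509 with median centring, where the difference was 0.30, and ran from 0.00340 to 0.0841 with 1 line left out. As the labels do not say that numbers pair lines, the block is given only here. With 1 line left out, differences ran from 0.30 to 0.48 for Thor and from -0.46 to -0.29 for Ilp7, and changed sign for InR (-0.19 to 0.027), foxo (-0.19 to 0.21) and Ilp2 (-0.12 to 0.20). Foxo was -0.010 with quantile normalization and -0.051 with median centring, S6k -0.023 with median centring and Ilp2 -0.047 without line 1 of both groups. The correlation of Thor with InR ran from -0.43 to 0.12 with 1 line left out, turning positive without control line 4 or selected line 1, and was 0.30 without line 1 of both groups and 0.21 within lines 3 to 5. That of foxo with Thor ran from -0.46 to 0.19, positive without the same single lines, and was 0.15 without line 1 of both groups. By Pearson's r, that of foxo with InR ended as a call within lines 3 to 5 (0.37), where 6 lines remain, and in no other alternative tried; the cause was not tested. By rho it ended in more of them, as given above. Foxo and Ilp7 were too dim for the stricter filter.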
